A study of Mus musculus with 12 samples.

Results

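The SOXE genes Sox8, Sox9 and Sox10 and the SOXD genes Sox5, Sox6 and Sox13 were examined for open chromatin in 4 sorted groups of mouse medulloblastoma cells. A peak belonged to one of these 6 genes when its midpoint lay inside the mm10 span of the gene or within 100 kb of it and no other protein-coding gene was nearer. All 6 genes were found in the gene table of 21627 protein-coding genes, and 163 of the 218906 peaks in the 12 lists belonged to them. Overlapping peaks (1 bp or more) of the 12 lists were joined, which gave 44242 regions, of which 53 lay at the 6 genes. Around Sox9, which stands alone in a long gene-poor interval, peaks were also followed to 500 kb, where 34 peaks in 16 regions were nearest to it.

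The cells came from endpoint SHH-subgroup medulloblastomas, cerebellar tumours driven by hedgehog signalling, of Ptch1+/- mice that received no treatment. The genotype was shared by every group, so each comparison was between cells of Ptch1+/- tumours, and no normal cerebellum was part of the design. There were 4 libraries of SOX2+ cells, 2 of SOX2+/MKI67+ cells, 2 of SOX2+/MKI67- cells and 4 of SOX2- cells. SOX2+ and SOX2- cells were separated by eGFP as the stem-like and the bulk compartment, and RFP separated cycling from non-cycling SOX2+ cells. The sources used here gave neither the reporter alleles nor the age of the mice. Each library came from 35000 to 50000 sorted cells taken through ATAC-seq, in which a transposase cuts accessible DNA.

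SOX proteins bind DNA through an HMG box and bend it. SOXE factors act in glia, neural crest and cartilage: SOX9 is needed for the onset of gliogenesis and for chondrocytes, SOX10 for the oligodendrocyte and Schwann lineages, and SOX8 overlaps with both. SOXD factors lack a classical activation or repression domain and work as partners, SOX5 and SOX6 holding back oligodendrocyte precursors in the spinal cord and acting beside SOX9 in cartilage. SOX13 is known best from T lymphocytes and from the developing nervous system.

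Each list held 9377 to 25272 peaks in SOX2+ cells, 18738 and 24694 in SOX2+/MKI67+ cells, 17615 and 19229 in SOX2+/MKI67- cells, and 7009 to 26206 in SOX2- cells. Read counts were not used here, so sequencing depth is unknown, and list length was taken as its proxy. At Sox2, the sort marker, 5, 2, 6 and 4 peaks were found in SOX2+ replicates 1 to 4, 3 and 5 in SOX2+/MKI67+ replicates, 3 and 6 in SOX2+/MKI67- replicates, and 0, 1, 1 and 1 in SOX2- replicates. Mki67, the marker of the MKI67 sort, had 2 and 5 peaks in SOX2+/MKI67+ replicates and 2 and 1 in SOX2+/MKI67- replicates, so these groups overlapped. It had 2, 5, 2 and 5 peaks in SOX2- replicates 1 to 4. No label says that replicates are from different animals, so the p-values rest on a spread between samples that may be no more than technical. The cells were profiled in bulk, so fewer cells with an open site and a less open site in every cell cannot be told apart. The MKI67 groups and the SOX2- cells came from different sorts, so sort and cell state cannot be told apart where these are compared.

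Promoter windows of 300 bases that lay under a member region are shown because they tie the peaks to a start site of the gene. The sequences are from RefSeq (GRCm38.p6, the assembly behind mm10), are read on the minus strand, and end 50 bases after the start. Capitals mark matches on either strand to the SOX cores ACAAT and ACAAAG, to the CCAAT box CCAAT and to the GC box GGGCGG.
Sox8 promoter, chr17:25570637-25570936: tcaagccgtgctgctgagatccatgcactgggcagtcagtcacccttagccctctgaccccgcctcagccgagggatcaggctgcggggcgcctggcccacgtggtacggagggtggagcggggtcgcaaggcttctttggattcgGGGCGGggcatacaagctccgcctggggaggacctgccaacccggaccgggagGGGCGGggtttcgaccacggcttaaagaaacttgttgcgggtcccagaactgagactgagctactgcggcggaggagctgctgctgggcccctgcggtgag
Sox13 promoter, chr1:133424163-133424462: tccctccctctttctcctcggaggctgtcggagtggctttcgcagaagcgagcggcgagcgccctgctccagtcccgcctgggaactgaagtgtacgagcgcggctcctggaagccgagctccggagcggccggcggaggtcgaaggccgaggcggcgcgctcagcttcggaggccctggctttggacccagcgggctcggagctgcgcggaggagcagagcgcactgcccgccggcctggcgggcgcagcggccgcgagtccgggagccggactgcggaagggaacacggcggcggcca
Sox6 promoter inside the gene, chr7:115824661-115824960: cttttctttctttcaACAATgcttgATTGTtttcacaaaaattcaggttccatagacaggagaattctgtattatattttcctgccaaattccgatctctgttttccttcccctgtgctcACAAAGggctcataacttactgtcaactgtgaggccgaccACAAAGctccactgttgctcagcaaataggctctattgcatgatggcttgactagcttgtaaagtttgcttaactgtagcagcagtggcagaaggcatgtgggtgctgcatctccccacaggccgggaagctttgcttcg

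The Sox8 and Sox13 windows were rich in CpG, with 21 and 40 CpG dinucleotides and 66.3% and 73.3% G and C, against medians of 7 CpG and 53.0% over 32619 mouse promoters. The Sox8 window held 2 GC boxes, a motif found in 35.9% of all promoters. The Sox13 window held no match to any of the letters marked by capitals. The internal Sox6 window held 2 matches to ACAAT and 2 to ACAAAG, motifs found in 30.7% and 18.7% of all promoters, and only 4 CpG. A match is a description of the letters in the window and was not tested as a binding site.

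None of the 6 genes passed the threshold of the test in any of the 4 comparisons. The test was limma on log2(peaks per gene + 1) over all 12 libraries, with the log10 of list length as a covariate and Benjamini-Hochberg adjustment over the 14182 genes that had a peak in at least 2 libraries. At an adjusted p under 0.05, 0 of 6 members were called in SOX2+ against SOX2- cells, where 0.86% of all genes tested were called. The count was 0 of 6 in SOX2+/MKI67+ against SOX2+/MKI67- cells (0.212% of genes), 0 of 6 in SOX2+/MKI67+ against SOX2- cells (0.536%) and 0 of 6 in SOX2+/MKI67- against SOX2- cells (0.98%). At an unadjusted p under 0.05 limma gave 1, 2, 3 and 2 members in these comparisons, where 13.3%, 4.64%, 9.49% and 14.4% of all genes passed. In the MKI67 comparison 28 of the 30 genes called had the same number of peaks in both libraries of each group, so the fitted spread of those genes was close to 0. Equal numbers within both groups were also found at 42 of 122 genes called in SOX2+ against SOX2- cells. Against SOX2- cells they were found at 60 of 76 genes called for SOX2+/MKI67+ and 75 of 139 for SOX2+/MKI67- cells.

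**Figure D1:**
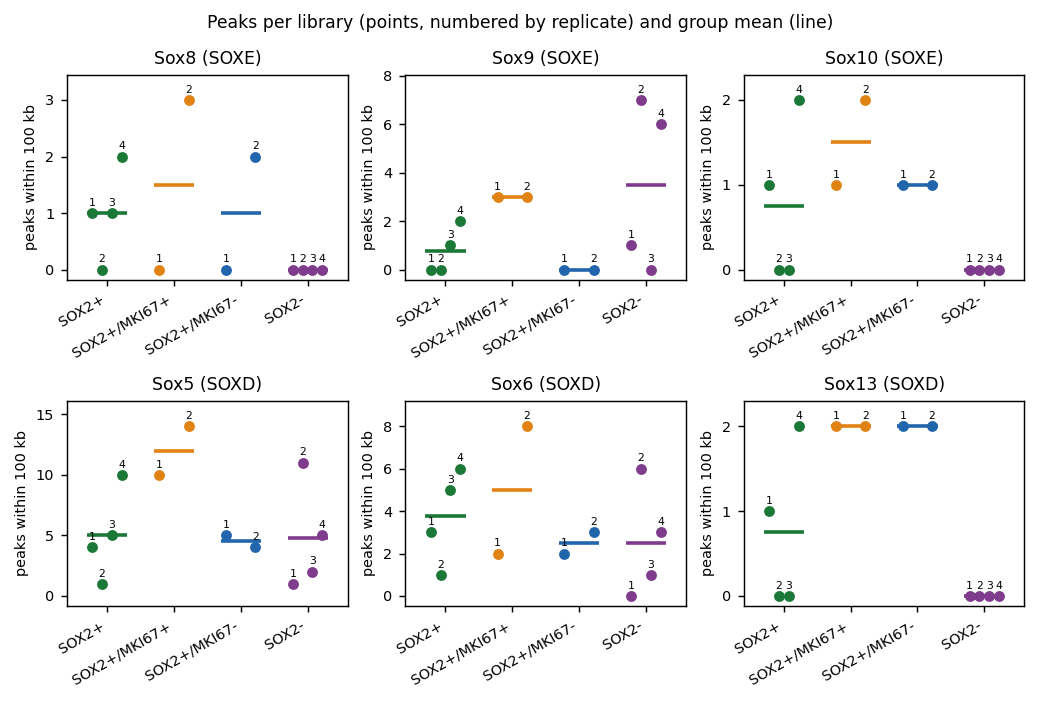
Peaks within 100 kb of each gene (vertical axis, number of peaks) in the 12 libraries, grouped by sort. Points are libraries, numbered by replicate, and lines are group means. At Sox8, Sox10 and Sox13 all 4 SOX2- libraries sit at 0, and at Sox9 the SOX2+/MKI67- libraries sit at 0 while SOX2- replicates 2 and 4 reach 7 and 6.

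Sox10, needed for the oligodendrocyte and Schwann lineages, had peaks in 6 of the 8 libraries of SOX2+ cells of any kind and in no SOX2- library. There were 1, 0, 0 and 2 peaks in SOX2+ replicates 1 to 4, 1 and 2 in SOX2+/MKI67+ replicates, 1 and 1 in SOX2+/MKI67- replicates, and 0 in each of the 4 SOX2- replicates. The log2 difference was 0.60 ± 0.34 (SE; limma adjusted p = 0.557) for SOX2+ against SOX2- cells, and the groups overlapped at 0. Without SOX2+ replicate 4 it was 0.34, and in the 50% of each list with the highest scores 0.22. It was 1.13 ± 0.43 (adjusted p = 0.426) for SOX2+/MKI67+ and 0.91 ± 0.41 (adjusted p = 0.372) for SOX2+/MKI67- against SOX2- cells, and in both cases the groups did not overlap. These groups came from different sorts, so sort and cell state cannot be told apart in them. Over all genes tested, 5.47% had more peaks in both SOX2+/MKI67+ libraries than in any SOX2- library, and 5.88% had more in both SOX2+/MKI67- libraries.

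A single Sox10 region accounted for 6 of its 8 peaks. It lay at chr15:79192937-79193854, 28.9 kb above the higher-coordinate end of the gene and over the lncRNA gene Gm10863, and was listed in SOX2+ replicates 1 and 4 and in all 4 libraries of the MKI67 sort. Its score stood at the 31.6 and 61.7 percentiles of the lists of SOX2+ replicates 1 and 4, at the 19.8 and 73.1 percentiles in SOX2+/MKI67+ replicates and at the 40.0 and 59.2 percentiles in SOX2+/MKI67- replicates. In these lists the region was thus of low to middling rank. No peak lay within 1 kb of either end of Sox10 in any of the 12 lists.

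Sox8, the third SOXE gene, was likewise without a peak in every SOX2- list, the longest list of 26206 peaks included. It had 1, 0, 1 and 2 peaks in SOX2+ replicates 1 to 4, 0 and 3 in SOX2+/MKI67+ replicates and 0 and 2 in SOX2+/MKI67- replicates. Libraries with and without a peak occurred in each of the 3 SOX2+ groups, so all of them overlapped with SOX2- cells. The log2 difference between SOX2+ and SOX2- cells was 0.83 ± 0.51 (SE; limma adjusted p = 0.611). Its gene-end region, chr17:25570558-25571005, lay over the promoter printed above and over that of the lncRNA gene Cerox1. It was listed in SOX2+ replicates 1 and 4, SOX2+/MKI67+ replicate 2 and SOX2+/MKI67- replicate 2. With start sites of both genes under this region, the list does not say to which of them the peak belongs.

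Sox13 had 1, 0, 0 and 2 peaks in SOX2+ replicates 1 to 4, 2 and 2 in SOX2+/MKI67+ replicates, 2 and 2 in SOX2+/MKI67- replicates and 0 in each of the 4 SOX2- replicates. Both MKI67 groups stood apart from SOX2- cells, which came from another sort. SOX2+ cells, of the same sort as SOX2- cells, overlapped with SOX2- cells. The log2 difference was 0.60 ± 0.33 (SE; limma adjusted p = 0.527) for SOX2+, 1.44 ± 0.42 (adjusted p = 0.305) for SOX2+/MKI67+ and 1.50 ± 0.40 (adjusted p = 0.159) for SOX2+/MKI67- against SOX2- cells. Without SOX2+ replicate 4 the first of these was 0.34. The last was larger than for 99.7% of genes tested, and its unadjusted p was 0.00635. Over all 8 libraries of SOX2+ cells, a grouping added after the data were seen, the difference was 1.18 ± 0.30 with an adjusted p of 0.103. In that grouping 0 of 6 members and 2.27% of genes were called, and 3 members had an unadjusted p under 0.05, as did 15.4% of genes.

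Both Sox13 regions were listed in libraries of SOX2+ cells alone. The region at the 5′ end, chr1:133423970-133424510, covered the CpG-rich promoter printed above and was listed in SOX2+ replicates 1 and 4 and in all 4 libraries of the MKI67 sort. Its peaks were weak, between the 2.27 and 39.9 percentiles of score within their lists. The other region, chr1:133492361-133493116, lay 68.3 kb beyond that end and was listed in SOX2+ replicate 4 and in all 4 libraries of the MKI67 sort.

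Sox8, Sox10 and Sox13 were the 3 members with no peak in any SOX2- list, a pattern that 6.58% of genes tested shared. Sox10 and Sox13 also had a peak in at least 6 of the 8 libraries of SOX2+ cells, as did 1.38% of genes. Both shares are of all genes tested, whatever their number of peaks. Sox8, Sox10 and Sox13 each had a mean under 1 peak per library, while 6547 genes had a mean of at least 1. The shares among genes with as few peaks were not counted, so how unusual the 3 members are among such genes is not known.

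Sox9, an activator of gliogenesis, showed another order of the groups, with most peaks in SOX2+/MKI67+ and SOX2- cells. Within 100 kb there were 0, 0, 1 and 2 peaks in SOX2+ replicates 1 to 4, 3 and 3 in SOX2+/MKI67+ replicates, 0 and 0 in SOX2+/MKI67- replicates, and 1, 7, 0 and 6 in SOX2- replicates. SOX2- replicates 2 and 4 were the highest of all libraries, and SOX2- replicate 3 was among those at 0. Per 10000 peaks of the list the values were 0.325 ± 0.393 in SOX2+ cells (SD, n = 4), 1.41 ± 0.273 in SOX2+/MKI67+ cells (n = 2), 0 in both SOX2+/MKI67- libraries and 1.72 ± 1.30 in SOX2- cells (n = 4). SOX2+ and SOX2- cells overlapped, while the 2 MKI67 groups did not.

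The log2 difference at Sox9 was -1.24 ± 0.48 (SE) for SOX2+ against SOX2- cells, below all but 0.3% of genes tested, with an unadjusted p of 0.0336 and a limma adjusted p of 0.318. It was -2.05 ± 0.59 (adjusted p = 0.177) for SOX2+/MKI67- against SOX2- cells and -0.32 ± 0.61 (adjusted p = 1.0) for SOX2+/MKI67+ against SOX2- cells. For SOX2+/MKI67+ against SOX2+/MKI67- cells it was 1.73 ± 0.68 (unadjusted p = 0.0353, adjusted p = 0.994). Sox9 was 1 of the 2.69% of genes with a peak in both SOX2+/MKI67+ libraries and in neither SOX2+/MKI67- library. SOX2- replicate 3, which had 0 peaks, bore on the first of these values: without it the difference was -1.70 with an adjusted p of 0.0399. Without SOX2- replicate 1, 2 or 4 that difference was -0.94, -1.06 and -1.05 (limma adjusted p = 0.482, 0.609 and 0.573). Among the 50% of each list with the highest scores, the MKI67 difference turned to -0.20.

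Among peaks nearest to Sox9 out to 500 kb the order of the groups was the same. Peaks nearer to Slc39a11, the next protein-coding gene above at 457 kb, were left out. Sox9 then had 0, 0, 2 and 3 peaks in SOX2+ replicates 1 to 4, 5 and 4 in SOX2+/MKI67+ replicates, 1 and 0 in SOX2+/MKI67- replicates, and 1, 11, 1 and 6 in SOX2- replicates. Per 10000 peaks, SOX2+ cells had 0.551 ± 0.640 and SOX2- cells 2.30 ± 1.51 (SD, n = 4 each), a difference of -1.74 (two-sided exact permutation test, p = 0.0857, where 0.0286 is the smallest p that 4 against 4 libraries can give). SOX2+/MKI67+ cells had 2.14 ± 0.741 and SOX2+/MKI67- cells 0.260 ± 0.368 (SD, n = 2 each), a difference of 1.88 (exact permutation p = 0.333, the smallest that 2 against 2 can give). Without SOX2- replicate 3 the first difference was -2.25 with an exact permutation p of 0.0286, the smallest that 4 against 3 can give, and without SOX2- replicate 2 it was -1.11. With every peak within 500 kb, an alternative added after the data were seen, the order changed. The means per 10000 peaks were then 5.77 in SOX2+/MKI67+, 4.31 in SOX2-, 3.38 in SOX2+ and 2.44 in SOX2+/MKI67- cells.

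**Figure D2:**
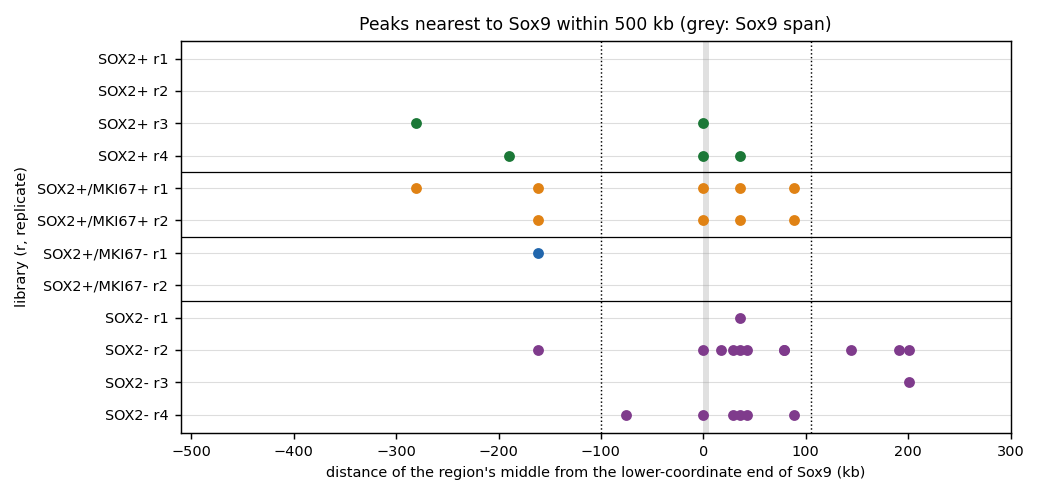
Peaks nearest to Sox9 within 500 kb in each of the 12 libraries (rows), by distance in kb from the lower-coordinate end of the gene (horizontal axis). Dotted lines mark the 100 kb limit. The cluster between the gene and about 100 kb above it is filled in SOX2- replicates 2 and 4, and the SOX2+/MKI67- rows hold a single point.

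Of the 16 regions nearest to Sox9 within 500 kb, 11 lay above the span, 4 below it and 1 at its lower end. The 2 sides were not searched equally far: above the gene the search stopped where Slc39a11 became nearer, and below it ran the full 500 kb. SOX2- libraries alone listed 10 of the 16, and 9 of those lay above the span, but 6 of the 10 were in SOX2- replicate 2 alone, the longest list. Without that library, an alternative added after the data were seen, 4 of 10 regions (40.0%) were in SOX2- libraries alone, against 12.8% of all regions, and 3 of these lay above the span. The gene-end region, chr11:112781682-112782516, was listed in SOX2+ replicates 3 and 4, both SOX2+/MKI67+ replicates, no SOX2+/MKI67- replicate and SOX2- replicates 2 and 4. Its score stood at the 61.0 and 8.76 percentiles in the SOX2+ lists, at 16.5 and 31.7 in the SOX2+/MKI67+ lists and at 70.1 and 61.5 in the SOX2- lists. Percentiles rank a peak within its own list and are not levels of accessibility.

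The Sox9 region that most SOX2- libraries shared, chr11:112818105-112818944, lay 30.8 kb above the gene. It was listed in SOX2+ replicate 4, both SOX2+/MKI67+ replicates, no SOX2+/MKI67- replicate and SOX2- replicates 1, 2 and 4. It was the only Sox9 region in the shortest list, that of SOX2- replicate 1 with 7009 peaks. When every list was cut to its 7009 highest-scoring peaks, this was the only Sox9 region left, in SOX2- replicates 1 and 4. A region 161 kb below the gene, chr11:112620883-112621327, was listed in both SOX2+/MKI67+ replicates, SOX2+/MKI67- replicate 1 and SOX2- replicate 2, and was the only Sox9 region in a SOX2+/MKI67- list. Of the 9 regions within 100 kb, 6 lay over another RefSeq gene, in each case an lncRNA gene.

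Sox5, a SOXD gene with a span of 954 kb, had the most peaks of the 6 genes and the most in SOX2+/MKI67+ cells. It had 4, 1, 5 and 10 peaks in SOX2+ replicates 1 to 4, 10 and 14 in SOX2+/MKI67+ replicates, 5 and 4 in SOX2+/MKI67- replicates, and 1, 11, 2 and 5 in SOX2- replicates. Per 10000 peaks SOX2+/MKI67+ cells had 5.50 ± 0.235 and SOX2+/MKI67- cells 2.44 ± 0.233 (SD, n = 2 each), and these groups did not overlap. SOX2+ cells had 2.49 ± 1.18 and SOX2- cells 2.38 ± 1.27 per 10000 peaks (SD, n = 4 each), and their ranges overlapped nearly throughout.

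For SOX2+/MKI67+ against SOX2+/MKI67- cells the log2 difference at Sox5 was 0.92 ± 0.27 (SE), larger than for 97.8% of genes tested, with an unadjusted p of 0.0102 and a limma adjusted p of 0.743. Sox5 and Sox9 were the 2 members with more peaks in both SOX2+/MKI67+ libraries than in both SOX2+/MKI67- libraries, a pattern of 7.97% of genes tested. Against SOX2- cells the difference at Sox5 was -0.07 ± 0.19 (adjusted p = 1.0) for SOX2+, 0.77 ± 0.24 (adjusted p = 0.335) for SOX2+/MKI67+ and -0.15 ± 0.24 (adjusted p = 0.910) for SOX2+/MKI67- cells. The MKI67 difference rested on weaker peaks: it turned to -0.29 with 7009 peaks per list and to -0.47 in the 50% of each list with the highest scores.

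**Figure D3:**
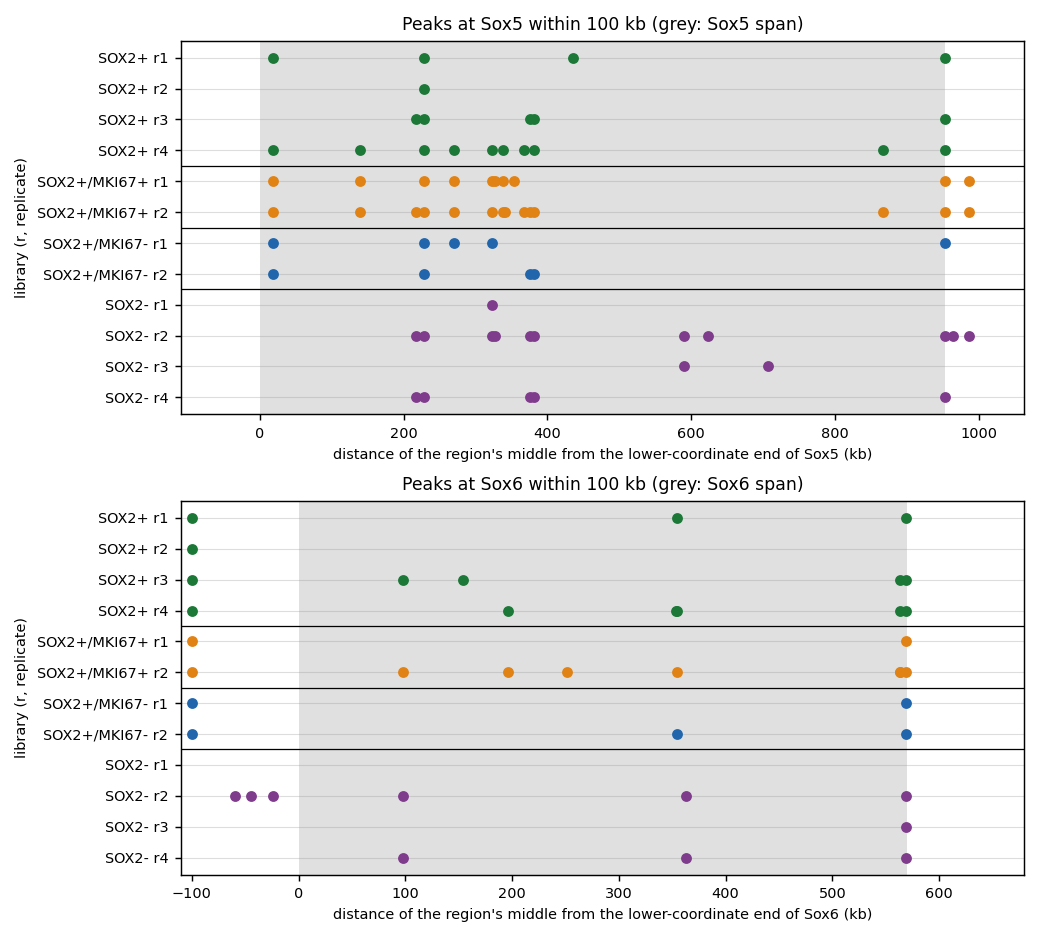
Peaks at Sox5 (top) and Sox6 (bottom) within 100 kb of each gene in the 12 libraries (rows), by distance in kb from the lower-coordinate end of the gene (horizontal axis). At Sox5 the SOX2+/MKI67+ rows hold 10 and 14 points, and at Sox6 the point 99.5 kb below the gene is present in all 8 libraries of SOX2+ cells and in no SOX2- library.

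The strongest Sox5 region ranked higher in every library of SOX2+ cells than in any SOX2- library. It lay inside the gene at chr6:144056556-144057309 and was listed in 10 of 12 libraries, all but SOX2- replicates 1 and 3. Its score stood at the 79.7, 67.0, 88.8 and 93.5 percentiles of the lists of SOX2+ replicates 1 to 4, at 84.5 and 80.6 in SOX2+/MKI67+ replicates and at 80.0 and 82.6 in SOX2+/MKI67- replicates. In SOX2- replicates 2 and 4 it stood at the 9.39 and 44.1 percentiles. Among the 7009 highest-scoring peaks of each list the region was present in all 8 libraries of SOX2+ cells and in no SOX2- library. With lists so cut, the log2 difference of Sox5 between SOX2+ and SOX2- cells was 0.75 with a limma adjusted p of 0.174, which did not pass the threshold.

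Other Sox5 regions followed the groups less closely. Its gene-end region, chr6:144781479-144781938, lay inside the 5′ end and was listed in SOX2+ replicates 1, 3 and 4, both SOX2+/MKI67+ replicates, SOX2+/MKI67- replicate 1 and SOX2- replicates 2 and 4. A region near the other end, chr6:143845691-143846117, was listed in 6 libraries of SOX2+ cells and in no SOX2- library. Just outside the 100 kb limit, a region 102 kb above the 5′ end, chr6:144883858-144884119, was listed in SOX2+ replicate 4 and SOX2+/MKI67- replicate 2. Of the 21 Sox5 regions 9 were listed in no SOX2- library, 4 in SOX2- libraries alone and 8 in both.

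Sox6, the partner of Sox5 in many tissues, had 3, 1, 5 and 6 peaks in SOX2+ replicates 1 to 4, 2 and 8 in SOX2+/MKI67+ replicates, 2 and 3 in SOX2+/MKI67- replicates, and 0, 6, 1 and 3 in SOX2- replicates. All groups overlapped. Per 10000 peaks SOX2+ cells had 1.94 ± 0.669 and SOX2- cells 1.12 ± 0.966 (SD, n = 4 each). The log2 difference was 0.42 ± 0.24 (SE; limma adjusted p = 0.576) for SOX2+ against SOX2- cells and 0.26 ± 0.34 (adjusted p = 1.0) for SOX2+/MKI67+ against SOX2+/MKI67- cells. Within 50 kb of the gene, a window that leaves out the region described next, the difference between SOX2+ and SOX2- cells turned to -0.02.

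A region far below Sox6 was listed in all 8 libraries of SOX2+ cells and in no SOX2- library. This region, chr7:115371138-115371594, lay 99.5 kb below the lower-coordinate end, which is the 3′ end of the gene, and so just inside the 100 kb limit. It was listed in all 4 SOX2+ libraries and in 0 of 4 SOX2- libraries, and the MKI67 sort libraries listed it in 2 of 2 SOX2+/MKI67+ and 2 of 2 SOX2+/MKI67- lists. Its score stood between the 26.1 and 82.1 percentiles in SOX2+ lists, at 50.0 and 74.3 in SOX2+/MKI67+ lists and at 57.7 and 58.7 in SOX2+/MKI67- lists. It was the only 1 of 53 member regions (1.89%) found in 3 or more of the 4 SOX2+ lists and in 0 of the 4 SOX2- lists, against 4.1% of all 44242 regions. With 7009 peaks per list it was left in 2 of 4 SOX2+, 1 of 2 SOX2+/MKI67+, 0 of 2 SOX2+/MKI67- and 0 of 4 SOX2- lists. Outside the limit, a region 300 kb below the gene, chr7:115170420-115170841, was listed in SOX2+ replicates 1, 3 and 4, both SOX2+/MKI67+ replicates, both SOX2+/MKI67- replicates and SOX2- replicate 4.

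The other Sox6 regions were either shared with SOX2- libraries or listed in fewer libraries. The gene-end region at the 5′ end, chr7:116039903-116040619, was listed in 10 libraries: SOX2+ replicates 1, 3 and 4, all 4 libraries of the MKI67 sort and SOX2- replicates 2, 3 and 4. Its score stood at the 67.1, 36.1 and 61.7 percentiles in those SOX2+ lists, at 56.2 and 72.3 in SOX2+/MKI67+ lists, at 18.4 and 37.0 in SOX2+/MKI67- lists, and at 43.5, 3.42 and 0.22 in the SOX2- lists. The region over the internal Sox6 promoter printed above, chr7:115824710-115825005, was listed in SOX2+ replicate 4 alone. The next region, chr7:115825249-115825695, lay over no promoter window. It was listed in SOX2+ replicates 1 and 4, SOX2+/MKI67+ replicate 2, SOX2+/MKI67- replicate 2 and no SOX2- library. Of the 14 Sox6 regions 7 were listed in a single library.

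**Figure D4:**
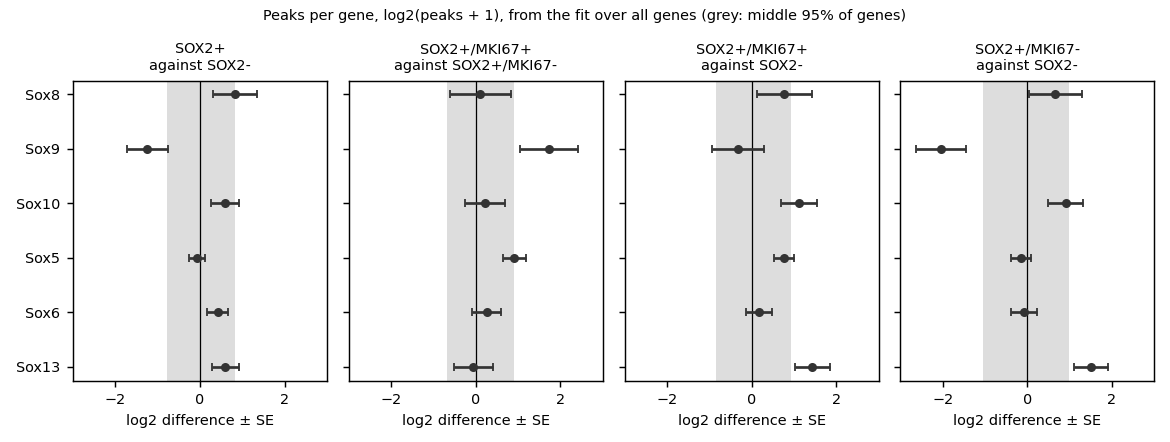
Log2 differences in peaks per gene (horizontal axis, log2 of peaks + 1, with SE as bars) for the 6 genes in the 4 comparisons, from the limma fit over all genes. Grey bands hold the middle 95% of genes tested. Sox9 lies outside the band at -1.24 in SOX2+ against SOX2-, 1.73 in SOX2+/MKI67+ against SOX2+/MKI67- and -2.05 in SOX2+/MKI67- against SOX2- cells, and Sox13 at 1.44 and 1.50 in both comparisons of MKI67 groups with SOX2- cells. Sox10 at 1.13 in SOX2+/MKI67+ against SOX2- cells and Sox5 at 0.92 between the MKI67 groups also lie outside.

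Fewer of the 53 regions at the 6 genes than of regions in general were listed both in SOX2- libraries and in libraries of SOX2+ cells. With all 12 libraries, more of them were listed on either side alone. SOX2+ cells had 8 lists and SOX2- cells 4, so the 2 sides had unequal room to list a region. No SOX2- library listed 26 of 53 member regions (49.1%), against 31.4% of all regions. SOX2- libraries alone listed 14 (26.4%), against 21.9%, and 13 (24.5%) were listed on both sides, against 46.7%. The genes differed in this: all 4 Sox8, all 3 Sox10 and both Sox13 regions lacked a SOX2- library, while 6 of 9 Sox9 regions were listed in SOX2- libraries alone. SOX2- replicate 2 decided much of the count in SOX2- libraries alone: without it, an alternative added after the data were seen, it was 3 of 6 regions at Sox9 and 6 of 45 at the 6 genes together (13.3%, against 12.8% of all regions). No member region, 0 of 53, was found in 3 or more of the 4 SOX2- lists and in 0 of the 4 SOX2+ lists, against 1.54% of all regions. Counted over at least 6 of 8 libraries of SOX2+ cells and 0 of 4 SOX2- libraries, a rule added after the data were seen, 4 of 53 regions (7.55%) qualified, against 4.05%: the Sox10, Sox5, Sox6 and Sox13 regions already described. Members of a gene share a locus and a library shares its list, so these shares are a description without a test.

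In the MKI67 sort, with the lists at full length, both SOX2+/MKI67+ and neither SOX2+/MKI67- library listed 6 of 53 regions (11.3%), against 4.03% of all regions, and these were 3 at Sox9 and 3 at Sox5. The opposite pattern was found at 0 of 53, against 0.972%. No member region was listed in a SOX2+/MKI67- library without a SOX2+/MKI67+ library, a pattern of 6.95% of all regions, while 19 of 53 (35.8%) were listed in at least 1 SOX2+/MKI67+ and no SOX2+/MKI67- library, against 17.5%. These counts rested on weaker peaks: with 7009 peaks per list, 0 of the 6 regions were left in a SOX2+/MKI67+ list, and the Sox5 region chr6:143845691-143846117 was left in SOX2+/MKI67- replicate 2 and in no SOX2+/MKI67+ list.

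**Figure D5:**
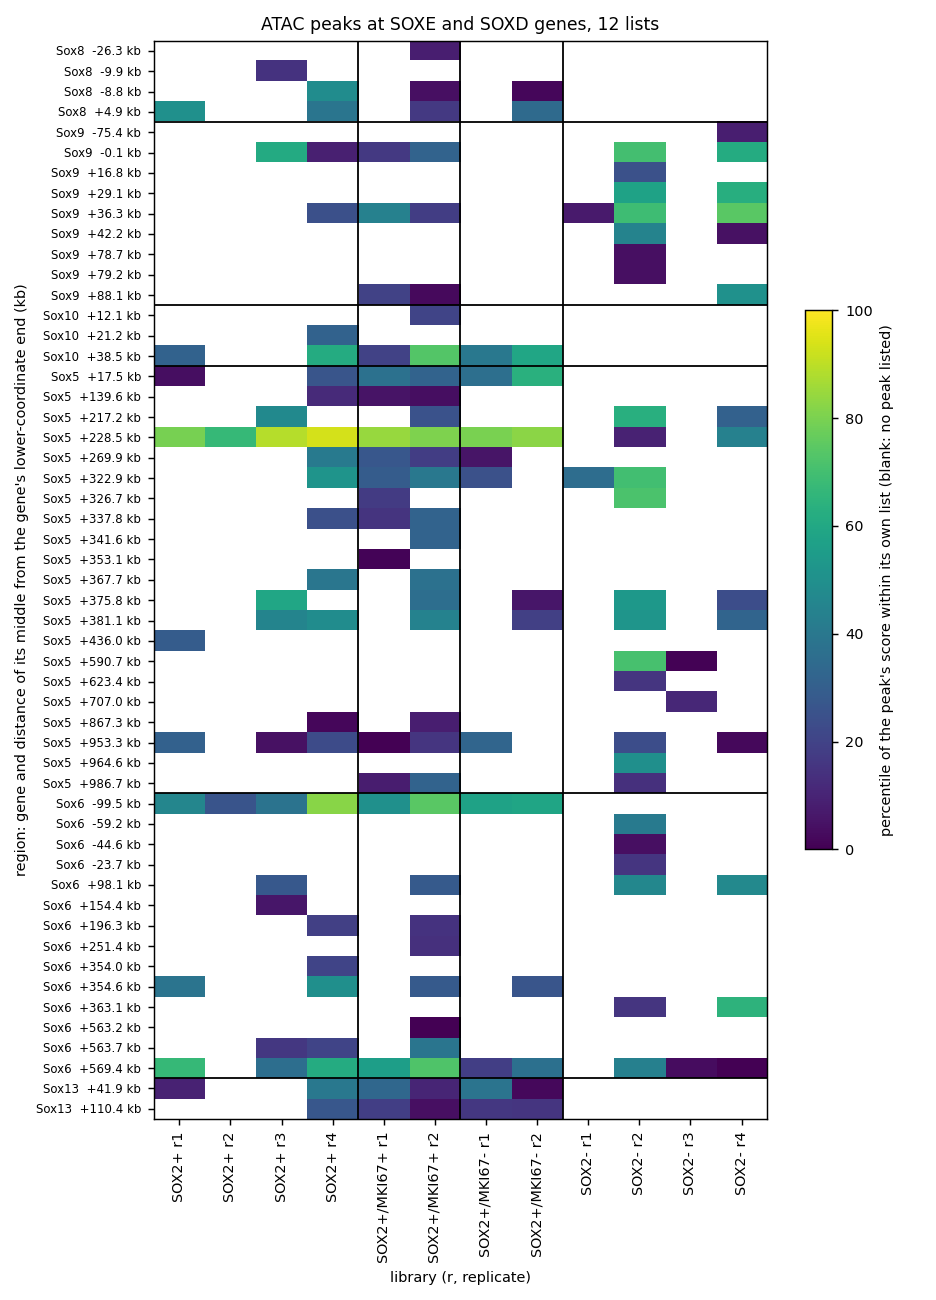
The 53 member regions (rows, with gene and distance in kb from its lower-coordinate end) in the 12 libraries (columns, by group). Colour gives the percentile of the peak's score within its own list, and blank cells are regions with no peak listed. The row at Sox5 +228.5 kb is bright in all 8 libraries of SOX2+ cells, and the rows of Sox8, Sox10 and Sox13 are blank in all 4 SOX2- columns.

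Member peaks were weaker than most. The median member peak stood at the 31.5 percentile of score within its list, from 16.3 at Sox13 and 16.5 at Sox8 to 36.5 at Sox6, and was 283 bp wide against 385 bp for all peaks. Of the 53 regions 21 (39.6%) were listed in a single library, against 30.4% of all regions, and 0 were listed in all 12 libraries, against 12.2%. With 7009 peaks per list, 7 of 53 member regions (13.2%) were left, against 31.4% of all regions: 1 at Sox9, 1 at Sox10, 3 at Sox5 and 2 at Sox6. A site missing in a list can be one that narrowly failed its peak calling, and the low ranks at Sox8 and Sox13 place these genes nearest to that limit.

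Of 32 genes known as partners or targets of SOXE factors in glia 28 were tested. In SOX2+ against SOX2- cells 3 were higher and 0 lower, where 0.86% of all genes were called. The median log2 difference of the 28 was 0.37 against 0.0 over all genes. The 3 were Olig2, an oligodendrocyte lineage regulator (log2 difference 1.26, limma adjusted p = 0.0328), Nkx2-2, its partner in oligodendrocyte precursors (1.44, adjusted p = 0.00521), and Fabp7, a radial glia fatty acid binding protein. Fabp7 had exactly 1 peak in every SOX2+ library and 0 in every SOX2- library, which leaves no spread for the test to use. Of the 28 log2 differences 19 were above 0. The lowest were those of Nfib (-0.62), Nfia (-0.61), Tead1 (-0.47) and Zbtb18 (-0.46), and none of these passed. In SOX2+/MKI67+ against SOX2+/MKI67- cells 0 of the 28 passed, against 0.212% of all genes. Over all SOX2+ cells against SOX2- cells, the grouping added after the data were seen, 3 were higher and 1 lower, where 2.27% of all genes were called. The lower gene was Zbtb18, which codes for a zinc finger repressor (log2 difference -0.62, limma adjusted p = 0.0437).

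The lists tied to other SOXE and SOXD tissues are given beside the 0.86% of all genes called in SOX2+ against SOX2- cells. Of 12 cartilage targets of SOX9 and SOXD 10 were tested and 0 passed in SOX2+ against SOX2- cells (median log2 difference 0.21). Of 13 neural crest and Schwann cell genes 10 were tested and 1 was higher, Tfap2a, a neural crest regulator with 1 peak in every SOX2+ and 0 in every SOX2- library (median 0.50). Of 14 other SOX genes 13 were in the gene table and 12 were tested, and 1 was higher, Sox21, a neural progenitor SOXB gene (log2 difference 1.57, adjusted p = 0.0220; median 0.09). Sox2 itself had a difference of 1.49 with an adjusted p of 0.0589. In the MKI67 comparison 0 genes of these 3 lists passed, against 0.212% of all genes.

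Marker loci of other cell types were summed in the same lists, and their part in the values above was not tested. Summed peaks at 5 oligodendrocyte lineage loci ran from 7.64 to 11.7 per 10000 peaks in SOX2+ cells, from 8.54 to 10.9 in SOX2+/MKI67+ cells, from 9.36 to 11.9 in SOX2+/MKI67- cells and from 0 to 3.82 in SOX2- cells, where Nkx2-2 was at 0. SOX2+ and SOX2- cells did not overlap in this sum, and how often sums of other loci do so was not counted. The sums of the 12 cartilage targets did not overlap either, at 5.33 to 7.12 in SOX2+ and 1.43 to 4.96 in SOX2- cells. The 5 loci were not alike: Nkx2-2 and Olig2 passed the limma threshold, while Pdgfra had a log2 difference of 0.06. At 7 astrocyte and Bergmann glia loci the ranges were 4.27 to 8.15 in SOX2+, 7.29 to 7.47 in SOX2+/MKI67+, 5.72 to 6.81 in SOX2+/MKI67- and 1.43 to 4.61 in SOX2- cells, with Aldh1l1, Aqp4 and S100b at 0 in SOX2- cells. There SOX2+ and SOX2- cells overlapped, and 0 of the 7 genes passed the limma threshold between them, against 0.86% of all genes. At 5 granule neuron progenitor loci the ranges were 0 to 6.62 in SOX2+, 4.46 to 5.34 in SOX2+/MKI67+, 2.27 to 3.12 in SOX2+/MKI67- and 4.28 to 7.25 in SOX2- cells. Barhl1 was at 0 in every library of SOX2+ cells and averaged 1.5 peaks per SOX2- library. In this sum SOX2+ and SOX2- cells overlapped. Their log2 differences at the 5 genes ran from -1.21 to -0.05, and 0 of the 5 passed the limma threshold, against 0.86% of all genes.

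The remaining marker lists held few peaks in both groups of the SOX2 sort. Mature oligodendrocyte loci held 2.04 to 3.96 per 10000 peaks in SOX2+ and 2.29 to 4.28 in SOX2- cells, with Mag at 0 in every library. Chondrocyte and mesenchyme loci held 0 to 3.96 in SOX2+ and 0 to 2.77 in SOX2- cells, with Twist1 at 0 in every library. Schwann and melanocyte loci held 1.07 to 2.98 in SOX2+ and 0.763 to 1.58 in SOX2- cells, with Tyr at 0 in every library. Leukocyte and microglia loci held 1.02 to 2.37 in SOX2+ and 0 to 1.38 in SOX2- cells, with Csf1r, Cx3cr1 and Aif1 at 0. Ptprc, of the same list, averaged 1.75 peaks per SOX2+ library, 2.0 in either MKI67 group and 0.5 per SOX2- library. Its limma estimate for SOX2+ over SOX2- was 0.98 on the log2 scale (adjusted p = 0.237). P2ry12 stood at 0.21 and Spi1 at -0.05, and 0 of these 3 tested genes passed the threshold. Endothelial and mural loci held 1.07 to 3.06 in SOX2+ and 0 to 3.69 in SOX2- cells, with Rgs5 at 0.

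Peak numbers at Sox9, Sox5 and Sox6 were also matched with those of 6547 genes that had a mean of at least 1 peak per library. Likeness was Pearson's r of log2(peaks + 1) over the 12 libraries after the relation to list length was taken out, and is a description because all genes share the libraries. Rab3c (r = 0.959) and Col6a3 (0.894) were among the genes most like Sox9. Sox5 was most like Tpd52l1 (0.923), Prrc2b (0.888) and D130037M23Rik (0.881), and Sox6 most like Bms1 (0.835), Esrrg (0.831) and Atp1b3 (0.816). Like Sox9, Rab3c was high in SOX2+/MKI67+ replicates 1 and 2, with 4 peaks each, and in SOX2- replicates 2 and 4, with 6 and 4, and it had 1 peak in each SOX2+/MKI67- replicate. Sox8, Sox10 and Sox13 had a mean under 1 peak per library and were not matched.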

How the data were processed

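The deposited peak lists of 12 ATAC-seq libraries were used as they were. The submitters' processing notes name Bowtie2, MACS2 and the build mm10, with no versions or settings. The deposited lists have no header, and in their narrowPeak layout the authors give each peak a score, a fold ratio over background, a −log10 p-value and a −log10 q-value. The score ranked peaks within a list, and the other values were not compared between lists.

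Peaks were given to the nearest of 21627 protein-coding genes (RefSeq, GRCm38.p6). The fit used limma 3.58.1 (lmFit, eBayes with trend) in R 4.3.3 with a pseudocount of 1 and all 4 groups, and was tested on simulated data. Regions were named for splitting SOX2+ from SOX2- libraries, for lying within 1 kb of a gene end or for being in all 12 lists. The other regions named were chosen after their values were seen. A few items that these rules name are not reported here. The 6 genes and all gene lists were chosen with earlier results of these data known. Alternatives changed the window, filter, pseudocount, treatment of list length, score threshold and libraries.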

Additional observations from a re-analysis of the deposited data

How the results depend on the processing

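The finding that 0 of 6 members passed the limma threshold held under most alternatives. With the libraries of the 2 groups alone, 1 member was called in SOX2+/MKI67+ against SOX2+/MKI67- cells (Sox9), 1 in SOX2+/MKI67+ against SOX2- cells (Sox13) and 2 in SOX2+/MKI67- against SOX2- cells (Sox10, Sox13). In each case the libraries of the MKI67 group or groups compared held equal numbers of peaks at the gene, so that fit has little spread to use. Leaving out a library gave 0 to 1 called members in SOX2+ against SOX2- cells, in SOX2+/MKI67- against SOX2- cells and in all SOX2+ cells against SOX2- cells: Sox9 without SOX2- replicate 3, and in the last also Sox13 without SOX2+ replicate 4. Peaks per 10000 without the covariate called 1 member, Sox13, in all SOX2+ cells against SOX2- cells. Regions of at least 3 of 4 SOX2- libraries numbered 1 when 1 SOX2+ library was allowed, and 0 to 1 with a library left out.

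The Sox9 difference to 500 kb between SOX2+ and SOX2- cells ran from -2.25 to -1.11 per 10000 peaks with a library left out. It was -0.71 (exact permutation p = 0.429) with 7009 peaks per list, -1.43 (p = 0.429) in the 50% of each list with the highest scores and -0.94 (p = 0.457) with every peak within 500 kb, an alternative added after the data were seen. With 7009 peaks per list both MKI67 groups were at 0 there. Of 542 alternative values of the 24 member differences, 39 turned direction, 6 passed the threshold and 497 did neither. With lists cut to 7009 peaks, Sox5 turned to 0.75 (SOX2+ against SOX2-), -0.29 (SOX2+/MKI67+ against SOX2+/MKI67-) and 1.04 (SOX2+/MKI67- against SOX2-). In the 50% of each list with the highest scores Sox5 gave 0.46, -0.47, -0.12 and 0.35 in the 4 comparisons in the order of the report, Sox9 -0.20 and Sox10 -0.049 between the MKI67 groups, and Sox6 0.61 in SOX2+/MKI67- against SOX2- cells. With the libraries of the 2 groups alone, the MKI67 groups gave Sox8 -0.56, Sox10 -0.0078 and Sox6 -0.16. Within the gene span alone Sox5 gave 0.0074 in SOX2+ against SOX2- cells, and Sox6 gave -0.0023 in SOX2+/MKI67+ and -0.081 in all SOX2+ cells against SOX2- cells. Within 50 kb Sox6 gave -0.023, -0.22 and -0.27 for SOX2+, SOX2+/MKI67+ and all SOX2+ cells against SOX2- cells. Without the covariate Sox5 gave 0.15 (SOX2+) and 0.26 (SOX2+/MKI67-), Sox9 0.30 (SOX2+/MKI67+) and Sox6 0.34 (SOX2+/MKI67-), each against SOX2- cells. Per 10000 peaks Sox5 gave 0.048 (SOX2+) and 0.092 (SOX2+/MKI67-) and Sox6 0.28 (SOX2+/MKI67-) against SOX2- cells, and with a pseudocount of 0.5 Sox6 gave 0.0058 in SOX2+/MKI67- against SOX2- cells.

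With a library left out, Sox5 ran from -0.21 to 0.10 in SOX2+ against SOX2- cells and from -0.30 to 0.0049 in SOX2+/MKI67- against SOX2- cells. Between the MKI67 groups Sox8 ran from -0.80 to 1.07, Sox10 from -0.00745 to 0.46 and Sox6 from -0.24 to 0.80. Against SOX2- cells Sox8 ran from -0.11 to 1.76 and Sox6 from -0.31 to 0.74 in SOX2+/MKI67+ cells, and Sox8 from -0.17 to 1.48 and Sox6 from -0.38 to 0.21 in SOX2+/MKI67- cells. Where this left 1 library in a group, it was assumed to vary like the other groups. The cause of these turns was not tested. Sox8, Sox10 and Sox13 had no value where they no longer passed the filter.

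Of the same-numbered samples of the SOX2 sort, those numbered 2 had r over 0.1 and the others did not (r = -0.0039, 0.409, 0.0764 and -0.182 over genes for numbers 1 to 4). Differently numbered samples reached r = 0.479 (SOX2+ replicate 4 with SOX2- replicate 1), and the same-numbered ones of the MKI67 sort had r = 0.0626, so the samples were taken to share only a number. With the replicate block 0 members were called in each comparison, Sox9 to 500 kb gave p = 0.25 in the SOX2 sort and p = 0.5 in the MKI67 sort (exact permutation within pairs), and 60 genes in all were called in SOX2+ against SOX2- cells in place of 122. The count over all genes was 122 in SOX2+ against SOX2- cells (60 to 227 under the alternatives), 30 between the MKI67 groups (0 with peaks per 10000, 322 with the libraries of the 2 groups alone), 76 in SOX2+/MKI67+ against SOX2- cells (15 to 331) and 139 in SOX2+/MKI67- against SOX2- cells (63 to 517). Depth limits every value here, because a region enters a list only past that list's threshold.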
